A study of Eublepharis macularius with 8 samples.

Results

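Transforming growth factor beta (TGF-beta) signaling was followed through 10 genes in the teeth of the leopard gecko (Eublepharis macularius), a reptile in which teeth are shed and renewed in adult life. The genes were taken by exact symbol from the 22488 rows of the deposited gene table. They comprise the 3 ligands TGFB1, TGFB2 and TGFB3, the 4 latency proteins LTBP1, LTBP2, LTBP3 and LTBP4, and the 3 receptors TGFBR1, TGFBR2 and TGFBR3. All 10 were in the table, and all 10 passed the filter on low counts that left 15491 genes for testing. The study set teeth in use, called functional, against the developing teeth that will succeed them, with 4 libraries of each. Replicates 1 to 3 of both groups came from adult females, with 3 teeth pooled per sample. For replicate 4 the donors were adult males, with 10 teeth in the functional and 11 in the developing sample. The labels give no treatment, and each library holds the RNA of all cells in the sampled teeth.

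In vertebrates, TGF-beta ligands are secreted as latent complexes, in which a propeptide holds the mature growth factor inactive. Latent TGF-beta binding proteins (LTBPs) tether this complex to fibrillin-rich matrix, from which integrins and proteases can release the ligand. The free ligand binds TGFBR2, which then activates the kinase TGFBR1, and SMAD2 and SMAD3 carry the signal to the nucleus. In mammals the pathway is known for its part in odontoblast differentiation, in dentin and bone matrix, and in the coupling of resorption to formation.

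Library totals lay between 14144573 and 30935120 estimated counts, and RNA integrity numbers between 8.8 and 9.6. Type I collagen (COL1A1 plus COL1A2) took between 29.2% and 33.2% of matched counts in functional libraries. In developing libraries they took 20.6%, 18.6%, 5.73% and 4.37% in replicates 1 to 4, so replicates 3 and 4 stood apart from replicates 1 and 2. The 8 enamel and dental epithelium markers in the table summed to between 5371 and 33931 CPM (read counts scaled to library size) in developing libraries and between 347 and 1650 CPM in functional libraries, with the highest functional sum in replicate 1. The titles number the libraries as biological replicates, but nothing in the labels ties each library to its own animals. The p-values therefore speak only of the spread among these 8 libraries, which may not be that among animals.

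Of the 10 genes, TGFB1 rose in functional teeth and no other gene passed the quasi-likelihood test of edgeR, at a Benjamini-Hochberg adjusted p under 0.05 over all 15491 genes. Among all genes tested, 2.81% were called, 0.800% higher and 2.01% lower in functional teeth. Before adjustment, 3 of the 10 genes had a p under 0.05, namely TGFB1, LTBP1 and TGFB2, each higher in functional teeth. Of all genes, 22.3% reached that level in either direction, 9.53% higher and 12.8% lower. DESeq2's Wald test called 1 of the 10 higher and 0 lower, where it called 4.74% higher and 6.30% lower of the 15224 genes to which it gave an adjusted p. The median log2 fold change, functional minus developing, was 0.07 over the 10 genes and 0.00127 over all genes tested. In bulk tissue, a difference in the number of cells that express a gene and a difference in RNA per cell cannot be told apart.

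**Figure D1:**
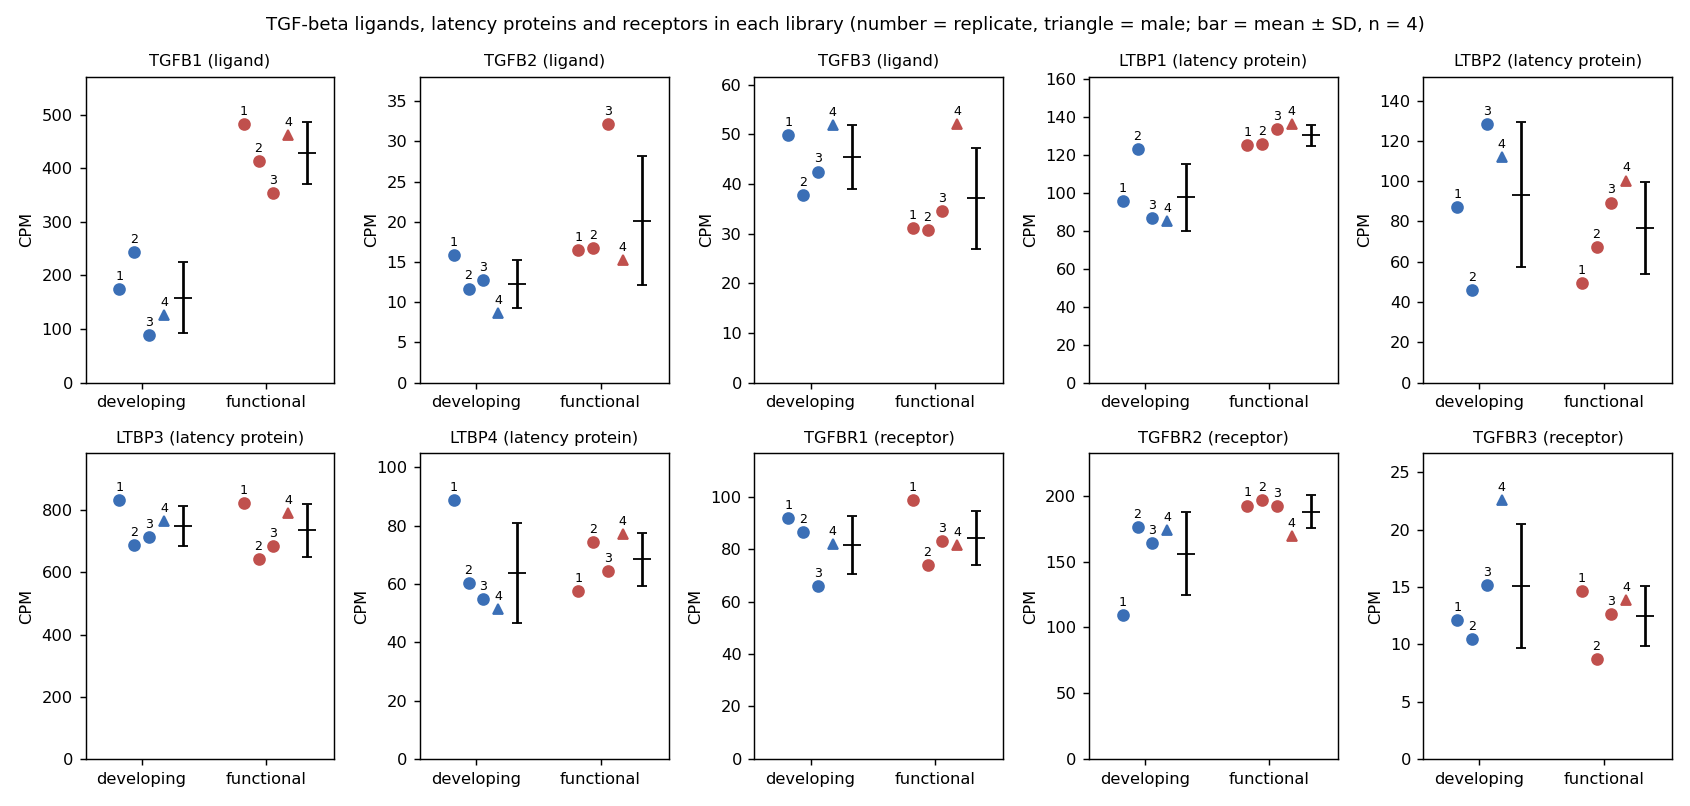
CPM of the 10 genes in each library, with developing libraries in blue and functional libraries in red; numbers are replicates, triangles are the male libraries, and black bars give the mean ± SD of 4 libraries. TGFB1 lies between 355 and 483 CPM in functional and between 89.3 and 243 CPM in developing libraries, and LTBP1 is the other gene whose groups do not overlap.

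Among the ligands, TGFB1, the main isoform of immune and mineralized tissues in mammals, was measured at 483, 413, 355 and 462 CPM in functional replicates 1 to 4. Developing replicates 1 to 4 held 174, 243, 89.3 and 127 CPM. Every functional library lay above every developing library, and the developing libraries spread more widely, with replicates 3 and 4 the lowest. The mean was 428 ± 57.3 CPM (SD, n = 4) in functional teeth against 158 ± 66.4 CPM in developing teeth. TGFB1 rose 2.71-fold, a log2 fold change of 1.44 ± 0.30 (SE) with a 95% interval of 0.76 to 2.11 and an adjusted p of 0.046. It stood at rank 375 of the 15491 genes by p, close to the threshold. Between libraries of the same replicate number the log2 difference was 1.47, 0.76, 1.99 and 1.87 for numbers 1 to 4, higher in functional teeth each time. Within the female libraries the log2 fold change was 1.30 with an adjusted p of 0.175, and the male pair gave 1.87 without a replicate. With the replicate number as a block, the log2 fold change was 1.53 and the adjusted p 0.0521. The call was also lost when any 1 library other than developing replicate 2 was left out, with adjusted p-values between 0.064 and 0.124 and log2 fold changes between 1.25 and 1.52.

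TGFB2, an isoform of epithelial and mesenchymal tissues, did not pass. Functional replicates 1 to 4 held 16.4, 16.7, 32.2 and 15.2 CPM, and developing replicates 1 to 4 held 15.9, 11.7, 12.7 and 8.61 CPM. Functional replicate 3 alone was high, and the groups overlapped, since developing replicate 1 exceeded functional replicate 4. The log2 fold change was 0.72 ± 0.29 (adjusted p = 0.192), or 0.40 without functional replicate 3. TGFB3, the isoform known from palate fusion in mammals, was measured at 31.04, 30.6, 34.5 and 52.1 CPM in functional and at 49.7, 37.8, 42.5 and 51.8 CPM in developing replicates 1 to 4. The 3 female functional libraries lay below the 3 female developing libraries, while the male libraries were nearly equal, and the groups overlapped. Its log2 fold change was -0.29 ± 0.20, with a 95% interval of -0.75 to 0.16 (adjusted p = 0.419). In the RefSeq annotation of this species the span of TGFB3 overlaps that of IFT43, and the strand setting of the counting is not given, so a contribution of reads from IFT43 was not tested.

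**Figure D2:**
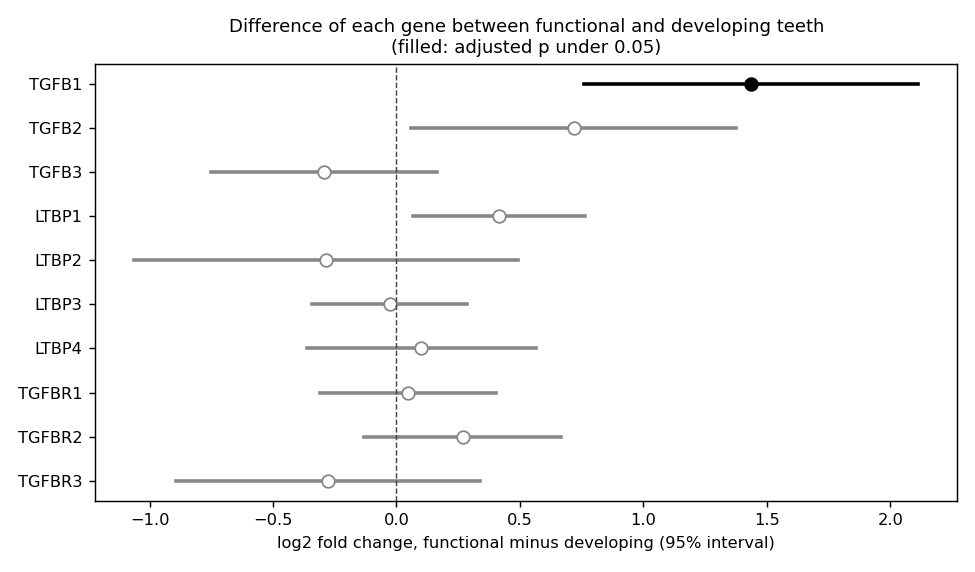
Log2 fold change, functional minus developing, of each of the 10 genes with its 95% interval; the filled point passed the adjusted p threshold of 0.05. The interval of TGFB1 runs from 0.76 to 2.11, and those of LTBP1 and TGFB2 lie above 0 although their adjusted p-values are 0.166 and 0.192.

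Because a ratio of 2 genes within a library does not depend on how libraries are scaled to each other, the balance of the ligands was also compared as ratios of counts. The count ratio of TGFB1 to TGFB3 was 15.6, 13.5, 10.3 and 8.87 in functional replicates 1 to 4 and 3.50, 6.43, 2.10 and 2.45 in developing replicates 1 to 4. All functional libraries exceeded all developing libraries. The log2 ratio averaged 3.56 ± 0.37 (SD, n = 4) in functional libraries and 1.71 ± 0.72 in developing libraries, a difference of 1.84, or 3.59-fold (exact two-sided permutation test, p = 0.0286, the smallest that 4 against 4 libraries allow; 0.171 after adjustment over the 6 ratios tested). The ratio did not pass after adjustment, and at this smallest p it could not have passed alone among 6 ratios. For TGFB1 to TGFB2 the groups overlapped, and the log2 difference was 0.84 (exact permutation p = 0.114, adjusted 0.214). For TGFB2 to TGFB3 it was 0.998 (exact permutation p = 0.114, adjusted 0.214), with functional replicate 4 below developing replicates 1 to 3. The ratios are ratios of reads, not of molecules, since transcript lengths were not used.

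**Figure D3:**
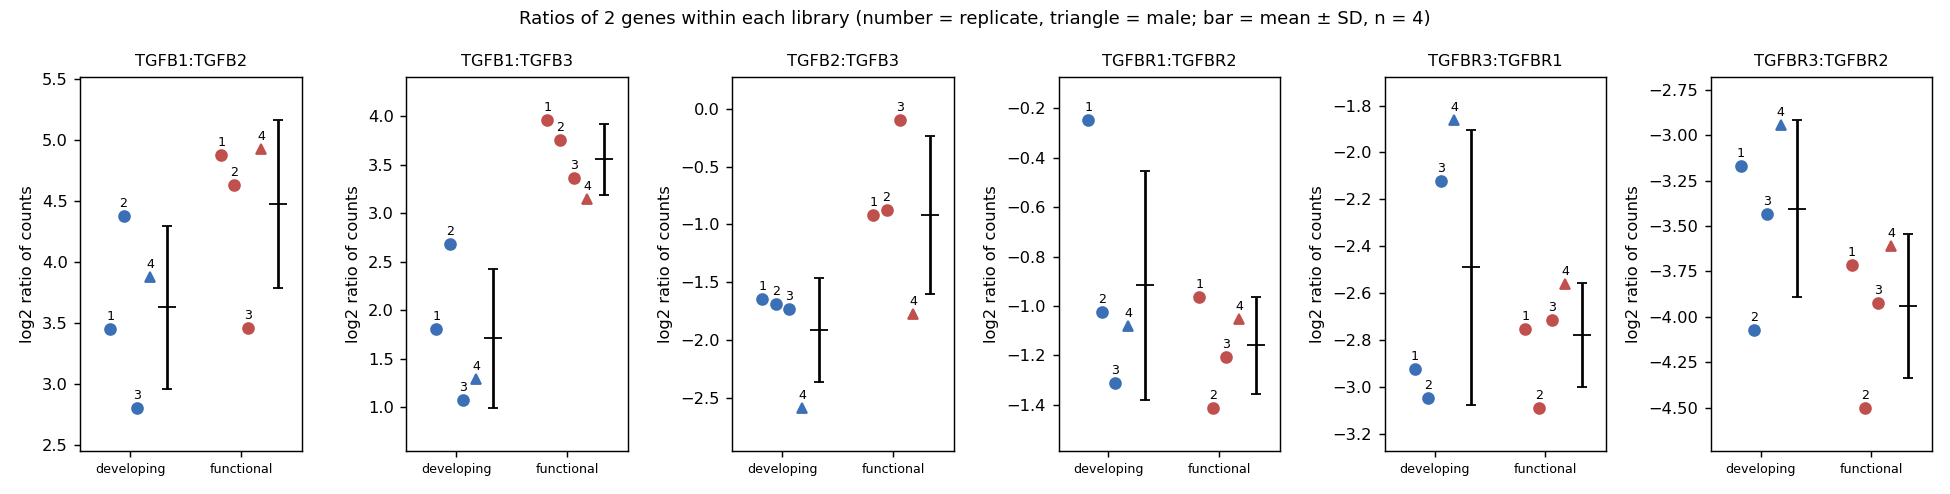
Log2 ratio of the counts of 2 genes within each library for 3 ligand pairs and 3 receptor pairs; numbers are replicates, triangles the male libraries, black bars the mean ± SD of 4 libraries. The groups separate for TGFB1 to TGFB3, with means of 3.56 and 1.71, and overlap for the other 5 ratios.

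Of the latency proteins, LTBP1 was the most uniform in functional teeth. This protein tethers latent TGF-beta to the matrix and was measured at 125, 126, 133 and 136 CPM in functional replicates 1 to 4 and at 95.8, 123, 86.5 and 85.0 CPM in developing replicates 1 to 4. The groups did not overlap, although developing replicate 2 came within a few CPM of the lowest functional library. Counting TGFB1, 2 of the 10 genes had every functional library above every developing library, against 6.42% of all genes tested, and none had every functional library below, against 8.60%. The mean of LTBP1 was 130.1 ± 5.57 CPM in functional teeth against 97.6 ± 17.7 CPM in developing teeth. Its log2 fold change of 0.42 ± 0.15 had a 95% interval of 0.07 to 0.77 and did not pass (adjusted p = 0.166). By replicate number the log2 difference was 0.39, 0.03, 0.63 and 0.68.

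LTBP3, which in mammals is needed for TGF-beta storage in bone and for normal teeth, showed the narrowest interval. It was measured at 824, 642, 686 and 791 CPM in functional and at 833, 687, 715 and 765 CPM in developing replicates 1 to 4. The ranges coincided almost fully, and in both groups replicate 1 was the highest and replicate 2 the lowest. Its log2 fold change was -0.03 ± 0.14, with a 95% interval of -0.34 to 0.29 (adjusted p = 0.923). With 13276 counts in the lowest library and 20321 in the highest, counting error was at most 0.868% of the value, so the width of the interval comes from the spread between libraries.

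LTBP2, which resembles the other LTBPs but in mammals does not bind latent TGF-beta, varied most among the latency proteins. Functional replicates 1 to 4 held 49.6, 67.5, 89.4 and 100.3 CPM, and developing replicates 1 to 4 held 86.9, 46.0, 128 and 112 CPM. Developing replicate 2 was the lowest library of all and developing replicate 3 the highest, so the groups overlapped over nearly their whole range. The log2 fold change was -0.28 ± 0.34, with a 95% interval of -1.06 to 0.49 (adjusted p = 0.663). It was 0.22 without developing replicates 3 and 4, the libraries with the lowest collagen share.

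LTBP4, known in mammals as a partner of TGFB1 in elastic tissues, was measured at 57.6, 74.5, 64.5 and 77.2 CPM in functional and at 88.8, 60.2, 54.9 and 51.4 CPM in developing replicates 1 to 4. Developing replicate 1 was the highest of all 8 libraries, while the other developing libraries lay at or below the middle of the functional range. Its log2 fold change was 0.10 ± 0.20, with a 95% interval of -0.36 to 0.57 (adjusted p = 0.799), and it was -0.05 among the female libraries.

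None of the 3 receptors passed edgeR's test, and none had an unadjusted p under 0.05. TGFBR1, the type I receptor kinase that phosphorylates SMAD2 and SMAD3, was measured at 98.8, 73.9, 83.2 and 81.6 CPM in functional and at 91.9, 86.6, 66.2 and 82.1 CPM in developing replicates 1 to 4. Both groups held high and low libraries. The log2 fold change was 0.05 ± 0.16, with a 95% interval of -0.31 to 0.40 (adjusted p = 0.88). TGFBR2, the type II receptor that binds the ligand, was measured at 193, 197, 192 and 169 CPM in functional and at 109, 176, 164 and 174 CPM in developing replicates 1 to 4. Developing replicate 1 was the low library, and the male functional library fell within the range of the developing libraries. The log2 fold change was 0.27 ± 0.17, with a 95% interval of -0.13 to 0.67 (adjusted p = 0.396).

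TGFBR3, or betaglycan, a co-receptor without kinase activity that presents ligand to TGFBR2 and is needed above all for TGFB2, had the fewest counts of the receptors. Functional replicates 1 to 4 held 14.6, 8.68, 12.7 and 13.8 CPM, and developing replicates 1 to 4 held 12.1, 10.5, 15.2 and 22.6 CPM. The male developing library was the highest, and the groups otherwise overlapped. Its log2 fold change was -0.28 ± 0.27, with a 95% interval of -0.89 to 0.34 (adjusted p = 0.579). The lowest library held 214 counts, at which counting error alone is 6.84% of the value. None of the 3 receptor ratios differed beyond the spread between libraries: the log2 difference was -0.24 for TGFBR1 to TGFBR2 (exact two-sided permutation p = 0.457), -0.29 for TGFBR3 to TGFBR1 (exact p = 0.4) and -0.53 for TGFBR3 to TGFBR2 (exact p = 0.143), and adjusted over the 6 ratios these were 0.457, 0.457 and 0.214.

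The rise of TGFB1 stood beside differences in the RNA of cell type markers. The 6 odontoblast and dentin markers summed to 300799 to 333564 CPM in functional libraries. In developing replicates 1 to 4 they summed to 142724, 136502, 34340 and 31041 CPM. Most of each sum came from COL1A1. Of the 6 genes, 5 had a positive log2 fold change, 0 were called by edgeR and 3 were called higher by DESeq2. Of the macrophage markers, 7 of 8 were in the table, 2 of the 6 tested rose (6 higher at an unadjusted p under 0.05, and 5 higher by DESeq2), and their sum was 99.0 to 330.1 CPM in functional and 42.4 to 63.6 CPM in developing libraries, with the scavenger receptor gene MARCO at 0 in every library. Of 7 odontoclast and osteoclast markers, 0 were called by edgeR (6 higher at an unadjusted p under 0.05) and 5 higher by DESeq2, all 7 had a positive log2 fold change, and they summed to 367 to 1823 CPM in functional and 124 to 305 CPM in developing libraries. Proliferation markers summed to 20.4 to 41.8 CPM in functional and 45.8 to 160.2 CPM in developing libraries, with 1 of 4 called lower by edgeR (4 lower at an unadjusted p under 0.05) and 4 lower by DESeq2. Over all genes tested, edgeR called 0.800% higher and 2.01% lower, and DESeq2 called 4.74% and 6.30%. At an unadjusted p under 0.05, 9.53% were higher and 12.8% lower. In functional replicates 1 to 4, odontoclast markers summed to 367, 464, 658 and 1823 CPM and macrophage markers to 142, 99.0, 104 and 330.1 CPM. TGFB1 stood at 483, 413, 355 and 462 CPM in the same libraries. Within developing teeth, TGFB1 was lower in replicates 3 and 4, where type I collagen was also low. Without these libraries its log2 fold change was 1.05 (adjusted p = 0.134). The part of these markers in the result was not tested.

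**Figure D4:**
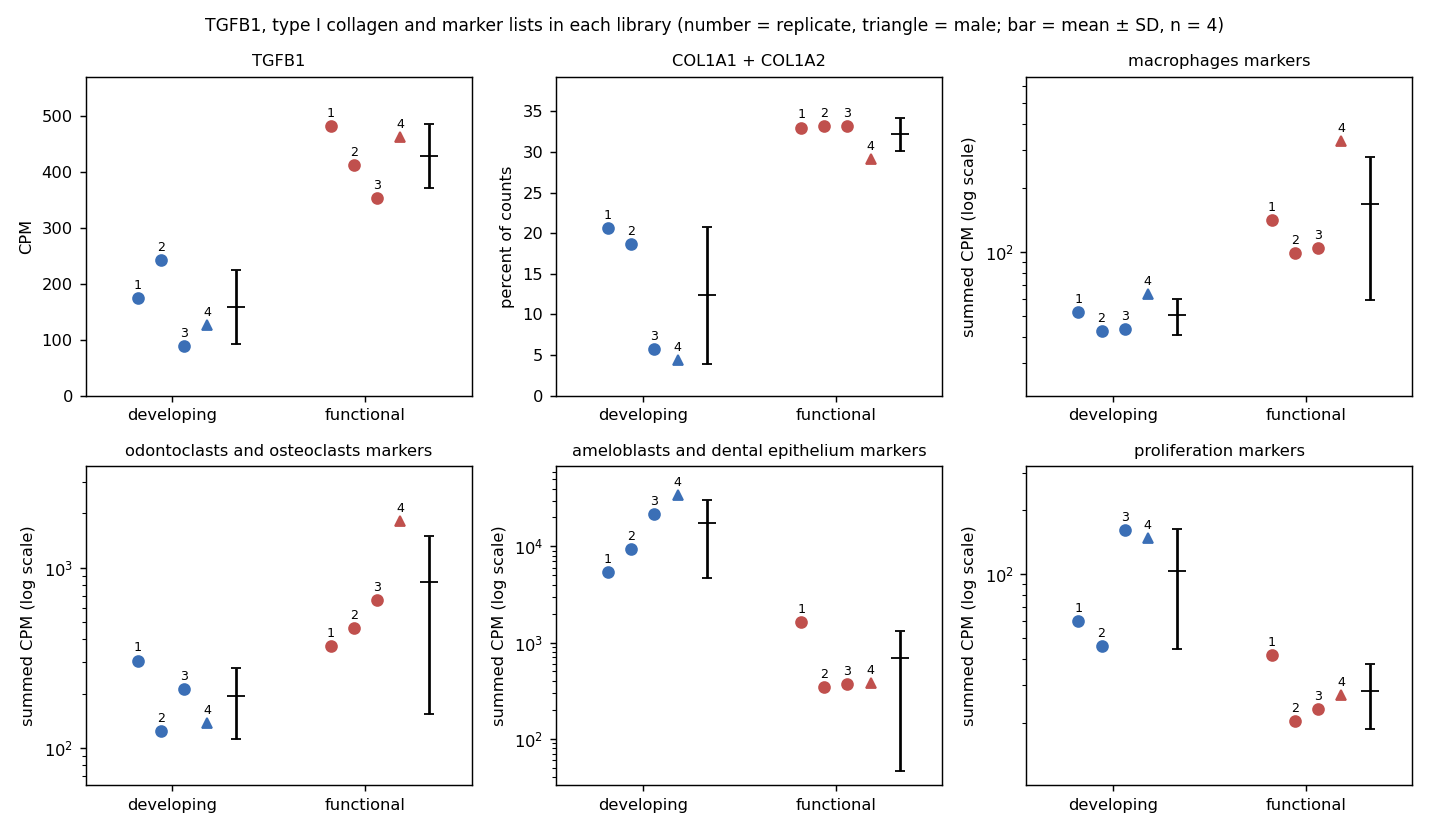
TGFB1 in CPM, the share of counts from COL1A1 and COL1A2 in percent, and the summed CPM of 4 marker lists on log axes, in each library; numbers are replicates, triangles the male libraries, black bars the mean ± SD of 4 libraries. Functional libraries are above developing libraries for TGFB1, collagen share, macrophage and odontoclast markers, and below them for epithelial and proliferation markers.

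The genes whose profile over the 8 libraries was most like that of TGFB1 were ADSS2, TMEM214 and ADAMTS14. Their log2 CPM correlated with that of TGFB1 at a Pearson r of 0.990, 0.989 and 0.988, the highest among 8286 genes with a symbol and a mean of at least 10 CPM. ADAMTS14, a procollagen-processing protease gene, held 19.7 ± 1.37 CPM in functional teeth against 4.50 ± 2.002 CPM in developing teeth, and ADSS2, an enzyme gene of purine synthesis, held 42.7 ± 1.49 and 24.6 ± 5.93 CPM. The closest profiles to LTBP1 were those of APBB1 (r = 0.987), YWHAQ (r = 0.984) and SH3BP5L (r = 0.982). TGFB2 was followed less closely, with BCR (r = 0.943) and SARAF (r = 0.937) at the top. All of these correlations share the 8 libraries and the difference between the groups, and they are descriptions only.

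Outside the 10 genes, 1 pathway gene rose and 1 fell among 56 tested members of 4 lists of pathway genes. These counts stand beside 0.800% higher and 2.01% lower over all genes, and DESeq2 called 7 of the 56 higher and 4 lower, against its 4.74% and 6.30% over all genes. Before adjustment, 11 of the 56 were higher and 8 lower at a p under 0.05, where 9.53% of all genes were higher and 12.8% lower. Of the 56, 6 had every functional library above every developing library, against 6.42% of all genes. Another 4 had every functional library below, against 8.60%. The gene that rose was ACVRL1, an alternative type I receptor of TGF-beta and BMP9 found mainly on endothelium in mammals. Functional replicates 1 to 4 held 13.8, 12.4, 21.7 and 24.4 CPM of it, and developing replicates 1 to 4 held 9.22, 6.26, 4.46 and 6.23 CPM. The groups did not overlap, and the log2 fold change was 1.46 ± 0.30 (adjusted p = 0.043). The call was lost with the replicate block (0.0788) and among the female libraries (log2 fold change 1.26, adjusted p = 0.168). It was also lost without any 1 library other than developing replicate 1, with adjusted p-values between 0.0627 and 0.126. The 7 endothelial markers, of which edgeR called 0 (5 higher at an unadjusted p under 0.05) and DESeq2 called 2 higher, summed to 72.5 to 109 CPM in functional and 44.97 to 91.3 CPM in developing libraries, and their part in this result was not tested. ACVRL1 was kept in a list named for co-receptors and decoys, and the other 5 genes of that list did not pass edgeR's test. ENG, the endoglin co-receptor that works with ACVRL1, chosen here after its values were seen, held 84.3 ± 38.0 CPM in functional teeth against 32.3 ± 16.9 CPM in developing teeth, a log2 fold change of 1.38 ± 0.46 (adjusted p = 0.135). Its groups overlapped, with functional replicate 2 at 50.2 CPM and developing replicate 1 at 53.9 CPM. DESeq2's Wald test called ENG higher (adjusted p = 0.0283). Of the 6 genes of this list, 4 had positive and 2 negative log2 fold changes. Before adjustment, 2 were higher and 0 lower at a p under 0.05, and DESeq2 called 2 higher and 0 lower, beside the shares of all genes given above.

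Of 18 genes of ligand processing, storage and activation, 1 fell and none rose, with a median log2 fold change of 0.25. Before adjustment, 3 higher and 5 lower genes had a p under 0.05, and DESeq2 called 1 higher and 2 lower. Over all genes the shares higher and lower were 0.800% and 2.01% by edgeR, 9.53% and 12.8% unadjusted, and 4.74% and 6.30% by DESeq2. The gene that fell was FBN2, which encodes fibrillin 2, a microfibril protein of developing tissues to which LTBPs can attach. It held 27.5, 24.3, 23.3 and 21.6 CPM in functional and 62.5, 49.9, 67.8 and 34.7 CPM in developing replicates 1 to 4. Every functional library lay below every developing library, and the log2 fold change was -1.15 ± 0.21 (adjusted p = 0.0367, and 0.0462 with the replicate block). Among the female libraries it was -1.26 (adjusted p = 0.0862), while the male pair differed least. The call was lost without functional replicate 1, 2, 3 or 4 or developing replicate 1 or 3, with adjusted p-values between 0.0572 and 0.12. Of the remaining genes of the list, 4 are given for their known roles, chosen after their values were seen. The small proteoglycan genes BGN (log2 fold change 1.67 ± 0.48, adjusted p = 0.101) and DCN (0.99 ± 0.34, adjusted p = 0.146), whose products bind TGF-beta in the matrix, had every functional library above every developing library without passing. The integrin genes ITGAV (-0.77 ± 0.24, adjusted p = 0.121) and ITGB8 (-0.73 ± 0.23, adjusted p = 0.128), whose products form an integrin that releases TGF-beta from its latent complex, had negative values without passing. The other integrin beta subunit genes of the list had log2 fold changes of both signs, from -1.18 to 0.35, and none passed. Over the whole list, 12 log2 fold changes were positive and 6 negative, so ITGAV and ITGB8 do not stand for the list. Of the 18 genes, 2 had every functional library above every developing library, against 6.42% of all genes. Another 2, FBN2 and ITGB8, had every functional library below, against 8.60%.

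None of 14 SMADs and regulators passed edgeR's test, with 3 positive and 11 negative log2 fold changes and a median of -0.17. Before adjustment, 1 higher and 3 lower genes had a p under 0.05, and DESeq2 called 0 higher and 2 lower. The shares of all genes were 9.53% higher and 12.8% lower unadjusted, and 4.74% and 6.30% by DESeq2. Those with the smallest p were TGIF2 (log2 fold change -0.83 ± 0.21, adjusted p = 0.0722) and TGIF1 (-0.41 ± 0.17, adjusted p = 0.194), which encode repressors that bind SMADs, ZFYVE9 (-0.75 ± 0.21, adjusted p = 0.0958), whose product brings SMAD2 and SMAD3 to the receptor, and the inhibitory SMAD6 (0.58 ± 0.25, adjusted p = 0.216). For TGIF2 and ZFYVE9, 2 of the 14 genes, every functional library lay below every developing library, against 8.60% of all genes. The reverse held for 0 of the 14, against 6.42%. The shared SMAD4 held 29.7 ± 1.38 CPM in functional teeth against 30.6 ± 2.36 CPM in developing teeth, and the 95% interval of its log2 fold change ran from -0.24 to 0.16.

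Of 18 tested genes known to respond to TGF-beta in mammalian cells none passed, with 15 positive log2 fold changes and a median of 0.61. The median over all genes tested was 0.00127. Values ran from -0.29 to 1.93, and the matrix genes COL1A1, COL1A2 and LOX were the highest, so the median does not describe all responsive genes alike. Some of the 18, COL1A1 among them, also belong to the cell type marker lists used here. Before adjustment, 5 higher and 0 lower genes had a p under 0.05, and DESeq2 called 4 higher and 0 lower, beside the shares of all genes given above (9.53% and 12.8% unadjusted, 4.74% and 6.30% by DESeq2). The log2 fold change of the collagen cross-linking enzyme gene LOX was 1.63 ± 0.51 (adjusted p = 0.121), with no overlap of the groups. COL1A1 (1.93 ± 0.65, adjusted p = 0.139) and COL1A2 (1.81 ± 0.64, adjusted p = 0.155) also had every functional library above every developing library. Both encode a main product of odontoblasts and bone cells, and the part of such cells in these values was not tested. With LOX, 3 of the 18 genes had every functional library above, against 6.42% of all genes. For 0 of the 18 was every functional library below, against 8.60%. SMAD7, an inhibitory SMAD also induced by the pathway and named after its values were seen, was at -0.27 ± 0.21 on the log2 scale (adjusted p = 0.485).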

How the data were processed

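The authors deposited estimated counts per gene, 1 column per library and not normalized, made with kallisto per the submitters' processing notes. Its version, strand setting, genome build and annotation: not given in the sources used here. The labels' protocols state a stranded mRNA library kit with paired reads of 59 bases. Kallisto divides reads among similar transcripts, so 34.2% of values were not whole. Values were rounded before testing. Row names were matched to RefSeq symbols of MPM_Emac_v1.0, used for names and neighbouring genes only. Of 22488 rows, 81 did not match (0.909% to 1.41% of counts) and were left out. No sequence or transcript length was used, so levels are not compared between genes.

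Genes were filtered with filterByExpr of edgeR 4.0.16 (R 4.3.3), scaled by TMM and tested by the quasi-likelihood test without a covariate. Standard errors were taken as log2 fold change over the root of the F statistic, and intervals use the test's degrees of freedom. CPM are on TMM-scaled library sizes. DESeq2 1.42.0 was an alternative. The edgeR fit was tested on simulated data. Ratios used 0.5 added to each count and an exact permutation test.

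The main test was unpaired. Replicate numbers were taken as pairs in the block alternative and in the differences by replicate number. Deviations from the group mean correlated at 0.226, 0.159, 0.308 and 0.678 in same-numbered pairs 1 to 4. The libraries of pair 4 share male donors and larger pools, so its value does not bear on whether a number marks the same animals. In the other group, 4 of 8 libraries correlated best with their own number, both libraries of replicate 4 among them, which leaves the pairing in doubt.

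The 10 genes and all lists were chosen with earlier results of these data known. The rule named all 10 genes, the called genes of each pathway list or else its 4 smallest p, and the 3 closest profiles to the 3 genes with the smallest p. ELN and some marker genes were not analysed here, and some genes that the rule names are not reported here.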

Additional observations from a re-analysis of the deposited data

Results flagged for a closer look

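In functional libraries, TGFB2 reached 32.2 CPM in replicate 3, far from the next value of 16.7 CPM, a gap that took up 0.912 of the group's range. TGFBR2 was lowest in functional replicate 4, at 169 CPM against 192 CPM in the next library, a gap of 0.841 of the range. Such gaps were looked for in 40 groups of 4 libraries over 20 genes, and 2 were found, where chance gives about 1 in 20.

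For 2 genes, the male pair did not share the difference seen in the female libraries. TGFB3 was lower in every female functional library than in any female developing library, with a mean log2 difference of -0.43, while the male pair differed by 0.0096. TGFBR2 was higher in every female functional library, with a mean log2 difference of 0.40, while the male pair differed by -0.040. The male pair has no replicate and also pooled more teeth per sample. Sex, pool size and any other difference in how this pair was handled therefore cannot be told apart. The differences between the male pair and the female libraries were not tested.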

How the results depend on the processing

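The 1 call among the 10 genes, TGFB1, was close to the threshold. It became 0 without the filter on low counts (adjusted p = 0.0519), with the replicate block (0.0521), among the female libraries, and without developing replicates 3 and 4 together, an alternative chosen after seeing the data. TGFB1 kept its call with DESeq2's Wald test (adjusted p = 0.000226). In edgeR it was kept with DESeq2's size factors (0.0436), without COL1A1 and COL1A2 in the totals (0.0437) and with sex as a covariate (0.0448). Leaving out 1 library at a time gave 0 to 1 genes higher and 0 lower. The log2 fold change of TGFB1 stayed positive in all 17 alternatives, between 0.89 and 1.72. Over all genes, 124 were higher and 312 lower. These counts were 721 and 959 with DESeq2, 69 and 151 with the replicate block, 246 higher with sex as a covariate, 1 and 2 among the female libraries, and 1 and 7 without developing replicates 3 and 4. They ranged from 2 to 184 higher and 5 to 457 lower with 1 library left out. Leaving out functional replicate 1, 2, 3 or 4 gave 45 and 123, 7 and 9, 7 and 5, and 2 and 6. Leaving out developing replicate 3 or 4 gave 7 and 22, and 12 and 41.

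Scaling to library totals in place of TMM shifted the median of all genes to -0.59. There 151 genes were called higher and 7453 lower, against 124 and 312 with TMM, so that 1.99% of calls were higher, against 28.4%. Among the 10 genes, 4 were called lower (TGFB3, LTBP3, TGFBR1 and TGFBR3) and TGFB1 remained higher (log2 fold change 0.89, adjusted p = 0.0184). LTBP1 (-0.16), LTBP4 (-0.48), TGFBR1 (-0.53) and TGFBR2 (-0.33) turned negative. Relative to the median of all genes they were 0.43, 0.11, 0.06 and 0.26, and TGFB1 was 1.48.

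The sign also changed elsewhere. LTBP4 was -0.053 among the female libraries and -0.11 without developing replicates 3 and 4, where LTBP2 was 0.22, TGFBR1 -0.069 and TGFBR3 0.15. With 1 library left out, TGFBR1 ranged from -0.035 to 0.13, negative without functional replicate 1 or developing replicate 3. LTBP3 ranged from -0.084 to 0.048, positive without functional replicate 2 or 3 or developing replicate 1. The cause of these shifts was not tested. The 6 ratios, recomputed with 5 added to each count, among the female libraries and with 1 library left out, kept their sign. Their p-values, limited by the few libraries, say nothing about stability.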

Other observations

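Further marker lists were summed in each library. Thrombocyte markers, of interest because mammalian platelets store TGF-beta 1, had 4 of 5 genes in the table, of which edgeR called 0 (3 higher at an unadjusted p under 0.05) and DESeq2 called 2 higher, and summed to 24.8, 48.6, 70.9 and 27.1 CPM in functional and 23.3, 12.5, 13.5 and 12.6 CPM in developing replicates 1 to 4. Their part in the TGFB1 result was not tested. Bone and cementum markers had 2 of 4 genes higher and 1 lower, and summed to 4879 to 8380.4 CPM in functional and 56.3 to 4991 CPM in developing libraries. Most of this sum came from the gene of the list that edgeR did not call (adjusted p = 0.416), whose groups overlapped. Dental mesenchyme markers had 1 of 6 lower and summed to 464 to 668 CPM in functional and 471 to 732 CPM in developing libraries. Sums in functional against developing libraries were also taken for perivascular and smooth muscle cells (38.6 to 63.5 against 34.0 to 61.8 CPM), lymphocytes (0.677 to 1.87 against 0.287 to 1.08 CPM, with CD79B at 0 in some libraries), skeletal muscle (1.35 to 1.91 against 1.80 to 60.4 CPM, with TNNT3 at 0 in some libraries) and oral mucosa, for which only TP63 was measured (47.7 to 100.95 against 27.7 to 112.2 CPM). In the odontoblast and dentin list, edgeR called 0 of 6 genes (4 higher at an unadjusted p under 0.05) and DESeq2 called 3 higher, and in the epithelial list edgeR called 1 of 8 lower and DESeq2 called 6. Over all genes tested, edgeR called 0.800% higher and 2.01% lower, and DESeq2 called 4.74% and 6.30%. At an unadjusted p under 0.05, 9.53% were higher and 12.8% lower.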
